A study of Sus scrofa with 12 samples.

Results

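miR-210 was followed as the single miRNA row named ssc-miR-210 (miRBase precursor MI0008220) of the 420 miRNA rows, under 362 names, in a small RNA sequencing table of the neonatal pig uterus. It was picked by name, for its role in low oxygen and because its share of miRNA reads was higher in newborn than in nursed uterus, so that this one difference is given below as a description, with no test. The table holds 12 libraries, 1 per gilt (young female pig), from crossbred animals of Landrace, Yorkshire, Duroc and Hampshire breeding. The 4 gilts of PND2N (postnatal day 2) nursed at will over 48 h, and the 4 of PND2R received commercial milk replacer over the same time. Tissue of both groups was collected at 50 h of age. The 4 PND0 gilts (postnatal day 0) had no nursing, and their uteri came from the first 1 h after birth. PND2N against PND0 and PND2R against PND0 address age, in which feeding cannot be told apart from age, and PND2N against PND2R addresses nursing at a single age.

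miR-210 is the miRNA most closely tied to low oxygen in mammalian cells. In human cells its gene is switched on by hypoxia-inducible factor (HIF), a transcription factor whose alpha subunit is broken down while oxygen is plentiful. The mature miRNA represses, among others, ISCU, a scaffold for building iron-sulfur clusters in mitochondria, and EFNA3, an ephrin ligand that acts in vessel growth. Birth takes the animal from the low oxygen of the womb to air breathing. In the Sscrofa11.1 RefSeq gene table, MIR210 was matched by symbol and lies between RASSF7 and PHRF1, overlapping no other gene listed there. The table of reads has 1 row for miR-210, with no second arm and no second precursor.

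Depth set the precision of every value. The deposited signal was turned back into whole reads, and the libraries held 37462 to 12159233 miRNA reads. Of the 12 libraries, 4 held under 100000 reads, namely PND2N replicate 2 and PND2R replicates 1, 2 and 3. Differences of miR-210 are given with and without single libraries. Counts of rows above and below 0, mean levels of other miRNAs and cell type sums include these 4 libraries and are not given without them. Levels are in rpm, reads per 1000000 miRNA reads of the same library. Intervals are exact (Clopper-Pearson) 95% binomial intervals and cover counting error only. The smooth muscle miRNAs miR-143 and miR-145 together took 94917 to 291202 rpm in the libraries. A bulk level cannot tell fewer cells with miR-210 from less miR-210 per cell.

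miR-210 was a mid-abundance miRNA of the neonatal uterus, ranked 94 to 134 by library among the 362 names, some with no recovered reads. In PND2N gilts it stood at 115.9, 26.7, 114 and 94.8 rpm in replicates 1 to 4, from 1369, 1, 958 and 23 reads. In PND2R gilts it stood at 134, 129, 146 and 175 rpm, from 10, 9, 7 and 1642 reads. In PND0 gilts it stood at 187, 238, 246 and 93.1 rpm, from 87, 848, 2989 and 35 reads. All PND2N libraries lay below all PND2R libraries. PND2R lay below PND0 except for PND0 replicate 4, which lay below all 4 PND2R libraries and also below 3 of the 4 PND2N libraries.

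**Figure D1:**
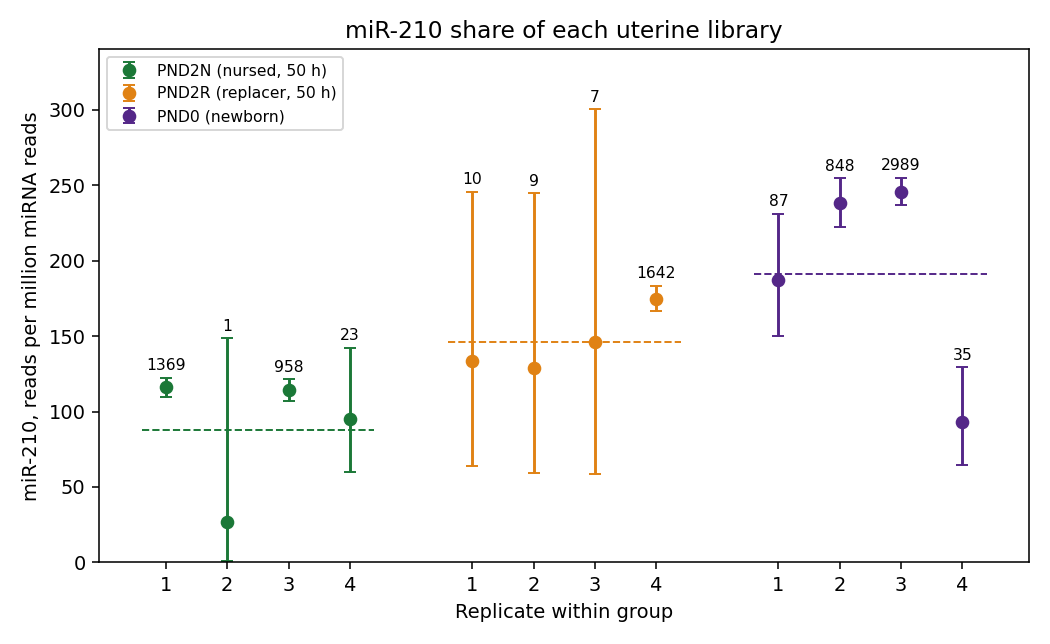
Share of miR-210 in each library, in reads per 1000000 miRNA reads, for PND2N, PND2R and PND0. Points are libraries, bars are exact 95% counting intervals, the number above each bar is the count of miR-210 reads, and dashed lines are group means of 87.9, 146 and 191 rpm. PND0 replicate 4, at 93.1 rpm, sits at the level of the PND2N libraries.

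The spread within PND0 was larger than counting error. The interval of PND0 replicate 4, 64.9 to 129 rpm, did not reach that of replicate 1, 150.0 to 231 rpm, and those of replicates 2 and 3 ran from 222 to 255 rpm. Within PND2N the intervals of all 4 libraries overlapped. That of replicate 2 spanned 0.676 to 149 rpm, since a single read is worth 26.7 rpm in this library. Within PND2R the intervals also overlapped, from 58.6 to 300.5 rpm over the 3 shallow libraries and from 166 to 183 rpm in replicate 4.

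Group means ran in the order PND2N, PND2R, PND0. miR-210 averaged 87.9 ± 41.9 rpm in PND2N, 146 ± 20.6 rpm in PND2R and 191 ± 70.3 rpm in PND0 (SD, n = 4 each). With the reads of each group pooled, the levels were 115 rpm (interval 110.2 to 119) in PND2N, 174 rpm (166 to 183) in PND2R and 239 rpm (232 to 247) in PND0. Pooled levels are set almost wholly by the deepest libraries.

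The nursed and newborn uterus differed most. PND2N stood at 0.460 times the mean of PND0, and PND2N libraries were lower in 13 of 16 pairs of libraries. On the scale of log2(rpm + 10), used in the limma fit over all 268 miRNA rows with enough reads, the difference was -1.11 ± 0.41 (SE), the fifth lowest of the 268, where the median row was at -0.20. These values describe what the miRNA was chosen for. The single read of PND2N replicate 2 carried much of the size: without that library the difference was -0.69 ± 0.31, and PND2N averaged 108 rpm. Without PND0 replicate 4 it was -1.40 ± 0.41.

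PND2R lay between the other groups, nearer to PND0 by group mean and about midway with reads pooled. It stood at 0.763 times the mean of PND0 and was lower in 12 of 16 pairs, with a log2 difference of -0.29 ± 0.41 (95% interval -1.18 to 0.59; limma adjusted p = 0.854). The PND0 libraries also served to choose miR-210, so this p is not independent of the choice. In this comparison 0% of the 268 rows passed by limma (29 had an unadjusted p under 0.05) and 0 by edgeR on recovered reads (28). The interval spans values on both sides of 0, so the data do not show that PND2R and PND0 were alike. Without PND0 replicate 4 the difference was -0.58 ± 0.41, without PND0 replicate 2 it was -0.16 ± 0.46 and without PND0 replicate 3 it was -0.15 ± 0.45.

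At the same age, PND2N stood at 0.603 times the mean of PND2R and was lower in 16 of 16 pairs. Of the 268 rows, 5.22% lay wholly lower in PND2N than in PND2R in this way, against 0.746% wholly higher. The log2 difference was -0.81 ± 0.41 (95% interval -1.70 to 0.07; limma adjusted p = 0.435), and on recovered reads edgeR gave -0.47 ± 0.32 (edgeR adjusted p = 0.881). The PND2N libraries also served to choose miR-210, so these p are not independent of the choice either. Without PND2N replicate 2 the limma difference was -0.39 ± 0.31, with PND2N still lower in every remaining library. Here too 0% of rows passed by limma (35 had an unadjusted p under 0.05) and 0 by edgeR (20).

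Within groups, deeper libraries mostly held the larger share of miR-210. In PND2N and in PND0 the libraries stood in the same order by share as by depth, and over the 3 groups the deeper library was the higher in 16 of 18 pairs of the same group. With the log10 of the depth added to the limma fit, miR-210 gained 0.44 ± 0.14 log2 units per 10-fold of depth (limma adjusted p = 0.0408). In that fit 23.1% of the 268 rows passed for depth, 53 rising and 9 falling, and the median row was at 0.14. With limma voom on recovered reads 22.4% passed, 26 rising and 34 falling, with the median row at -0.06, so the balance of directions over all rows depends on the scale. The call for miR-210 was lost with limma voom (0.30 ± 0.13, adjusted p = 0.112), and without any one of PND2N replicates 1, 2 and 3 or PND0 replicates 2, 3 and 4 (adjusted p up to 0.223). PND0 replicates 1 and 4 held 464476 and 375882 reads, with miR-210 at 187 rpm in replicate 1 and at 93.1 rpm in replicate 4.

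**Figure D2:**
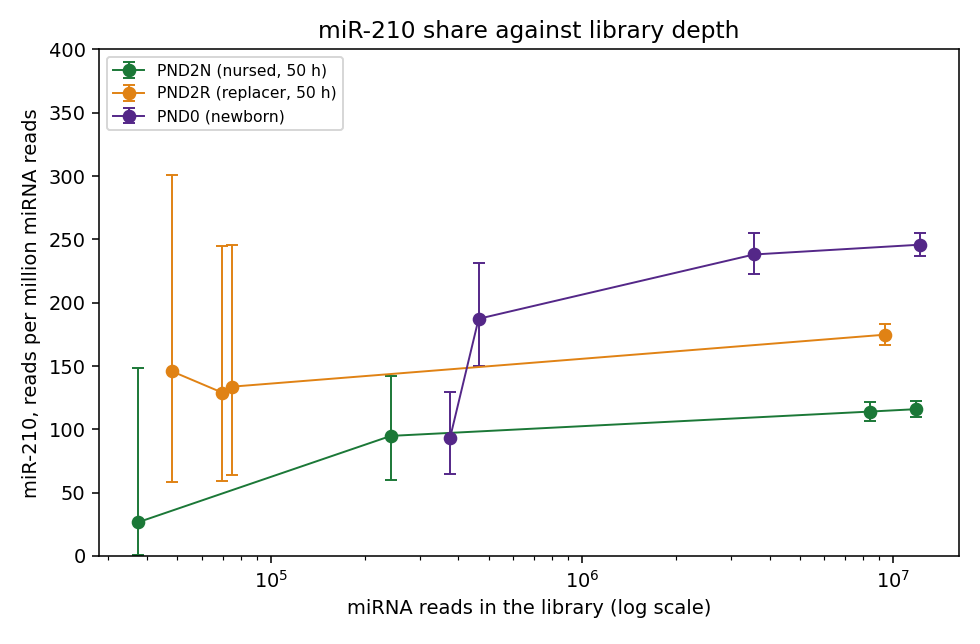
Share of miR-210 (reads per 1000000 miRNA reads) against the miRNA reads of the library on a log axis, with libraries of a group joined in order of depth and exact 95% counting intervals as bars. The 5 libraries at the right, over 1000000 reads, stand at 114 and 115.9 rpm in PND2N, 175 rpm in PND2R, and 238 and 246 rpm in PND0.

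Groups were therefore also set side by side at like depth. In the 5 libraries over 1000000 reads, miR-210 stood at 114 and 115.9 rpm in PND2N, 175 rpm in PND2R, and 238 and 246 rpm in PND0. The counting intervals of the 3 groups did not overlap, but at this depth they are narrow and leave out the spread between gilts. How many other rows separate in this way was not counted. The PND2N and PND0 libraries also served to choose miR-210. The ratios of means were 0.475 for PND2N over PND0, 0.722 for PND2R over PND0 and 0.658 for PND2N over PND2R. In the 3 libraries between 100000 and 1000000 reads, PND2N replicate 4 stood at 94.8 rpm, and PND0 replicates 1 and 4 at 187 and 93.1 rpm, so that PND2N was lower in 1 of 2 pairs. In the 4 libraries under 100000 reads, the single PND2N library stood at 26.7 rpm and the 3 PND2R libraries at 129 to 146 rpm, from 1 and 26 reads in all. PND2R and PND0 shared 1 depth class only, that over 1000000 reads. With depth as a covariate the log2 difference was -1.004 ± 0.317 for PND2N against PND0, 0.10 ± 0.34 for PND2R against PND0 and -1.10 ± 0.33 for PND2N against PND2R (limma adjusted p = 0.0654 for the last, where 4.1% of the 268 rows passed in that fit, against 0.373% for PND2R against PND0). The direction of PND2R against PND0 thus depends on how depth is handled. The covariate was added after seeing the data, and depth differed between the groups. The PND2N libraries also served to choose miR-210, so the p for PND2N against PND2R is not independent of the choice.

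**Figure D3:**
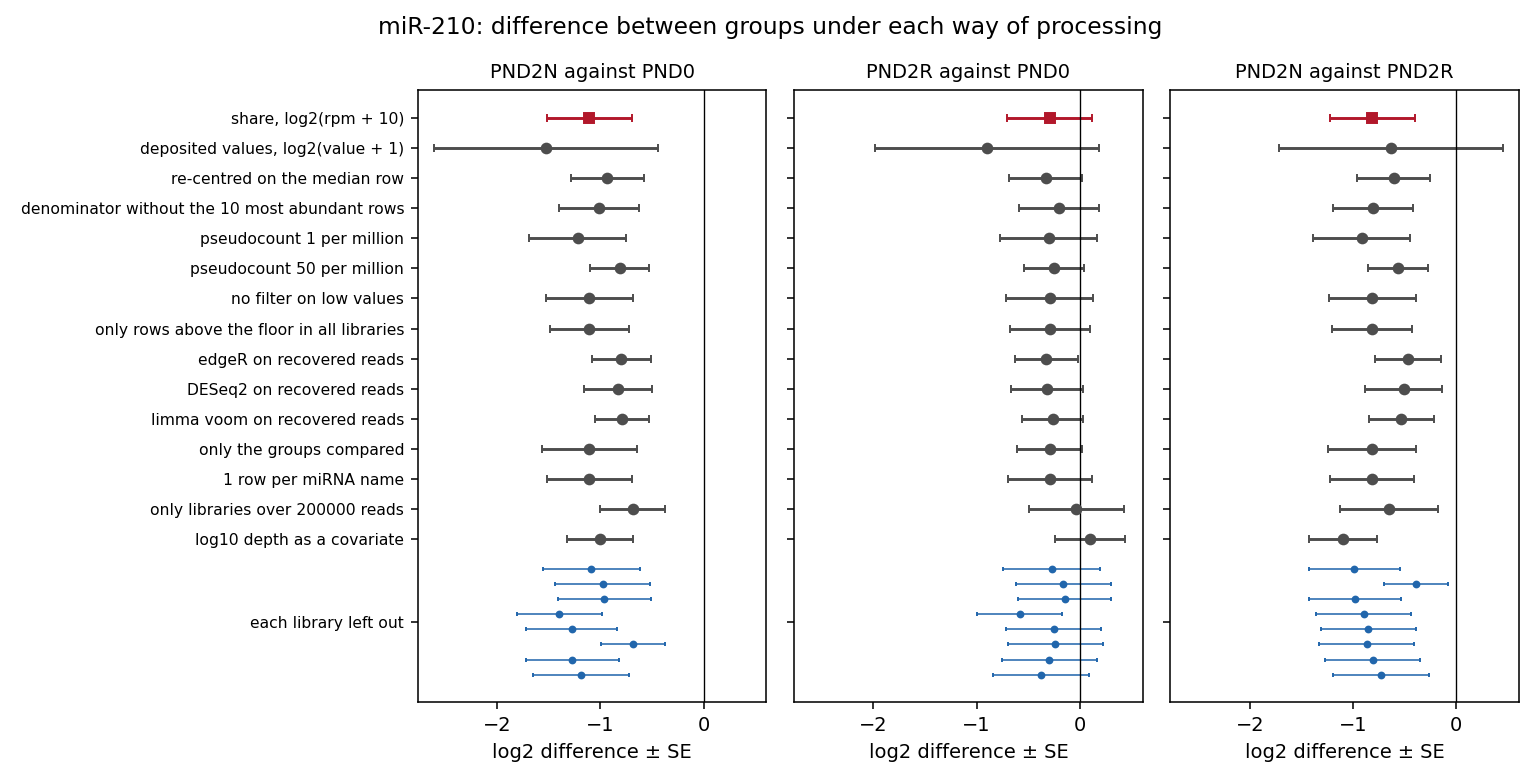
Log2 difference of miR-210 (point) with its SE (bar) in the 3 comparisons, 1 panel each, for each way of processing, with the fit on log2(rpm + 10) as a red square and fits without 1 library in blue. All points lie below 0 for PND2N against PND0 and for PND2N against PND2R, and 1 point, with depth as a covariate, lies above 0 for PND2R against PND0.

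miRNAs that other work ties to low oxygen were then set beside miR-210. A list held 18 miRNAs raised by low oxygen in cultured human cells, of which 3 matched no row. It gave 21 rows besides miR-210, all of them tested. Some, such as miR-181a and miR-24-3p, have more than 1 precursor row with nearly the same reads. The counts below are therefore of rows and not of separate miRNAs. For PND2N against PND0, 1 was above and 20 below 0, with a median of -0.29 against -0.20 over all 268 rows, and 0 passed (in this comparison 0% of all rows passed by limma, with 22 at an unadjusted p under 0.05, and 0 by edgeR, with 17). For PND2R against PND0, 11 were above and 10 below 0 (median 0.04 against -0.08 over all rows). For PND2N against PND2R, 6 were above and 15 below (median -0.24 against -0.15), and 0 passed in either. Most of all 268 rows also lay below 0. For PND2N against PND0, 67 were above and 201 below. Without PND2N replicate 2, limma gave 9 rows at an unadjusted p under 0.05 in this comparison, instead of 22. For PND2R against PND0, 110 were above and 158 below, and for PND2N against PND2R 104 and 164. The comparisons share groups, so these counts are not independent of each other.

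The most abundant members of that list did not pass in any comparison. miR-27b-3p, of the miR-23, miR-27 and miR-24 cluster, stood at 62951 ± 8346 rpm in PND2N, 74688 ± 9398 rpm in PND2R and 70617 ± 11573 rpm in PND0 (SD, n = 4 each). Its cluster partner miR-24-3p stood at 15705 ± 963 rpm in PND2N, 18530.4 ± 1715 rpm in PND2R and 18024 ± 1512 rpm in PND0. miR-125b stood at 26489 ± 3319 rpm in PND2N, 35710 ± 5426 rpm in PND2R and 37822 ± 11640.0 rpm in PND0, and miR-181a at 10668 ± 2346 rpm in PND2N, 10449.6 ± 1837 rpm in PND2R and 13129 ± 2029 rpm in PND0. Their limma adjusted p were 0.379 to 0.970 over the 3 comparisons.

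A second list held 15 miRNAs reported to act on HIF subunits or on the proteins that regulate them, of which 3 matched no row. It gave 18 rows, of which 17 were tested. miR-107 stands in both lists. For PND2N against PND0, 1 was above and 16 below 0 (median -0.43 against -0.20 over all rows). For PND2R against PND0, 5 were above and 12 below (median -0.04 against -0.08), and for PND2N against PND2R 1 was above and 16 below (median -0.36 against -0.15). Of all 268 rows, 201 lay below 0 for PND2N against PND0, 158 for PND2R against PND0 and 164 for PND2N against PND2R. In none of the 3 comparisons did a row of the list pass by limma or edgeR. miR-199a, reported to target HIF1A in rodent heart cells, was the most abundant. Its arm miR-199a-3p stood at 36394 ± 6565 rpm in PND2N, 45952 ± 6357 rpm in PND2R and 47149 ± 6395 rpm in PND0. Each arm has another precursor row that can share its reads, so the counts of this list are also of rows and not of separate miRNAs. The arm miR-199a-5p stood at 20846 ± 8945 rpm in PND2N, 21289.9 ± 4762 rpm in PND2R and 22810.1 ± 6931 rpm in PND0. miR-17-5p and miR-20a, of the miR-17 cluster, whose members target HIF1A in human cells, stood at 840 ± 447 and 2303 ± 1310 rpm in PND2N, at 1253 ± 438 and 2955 ± 1205 rpm in PND2R, and at 1195 ± 477 and 2869 ± 1190.0 rpm in PND0.

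**Figure D4:**
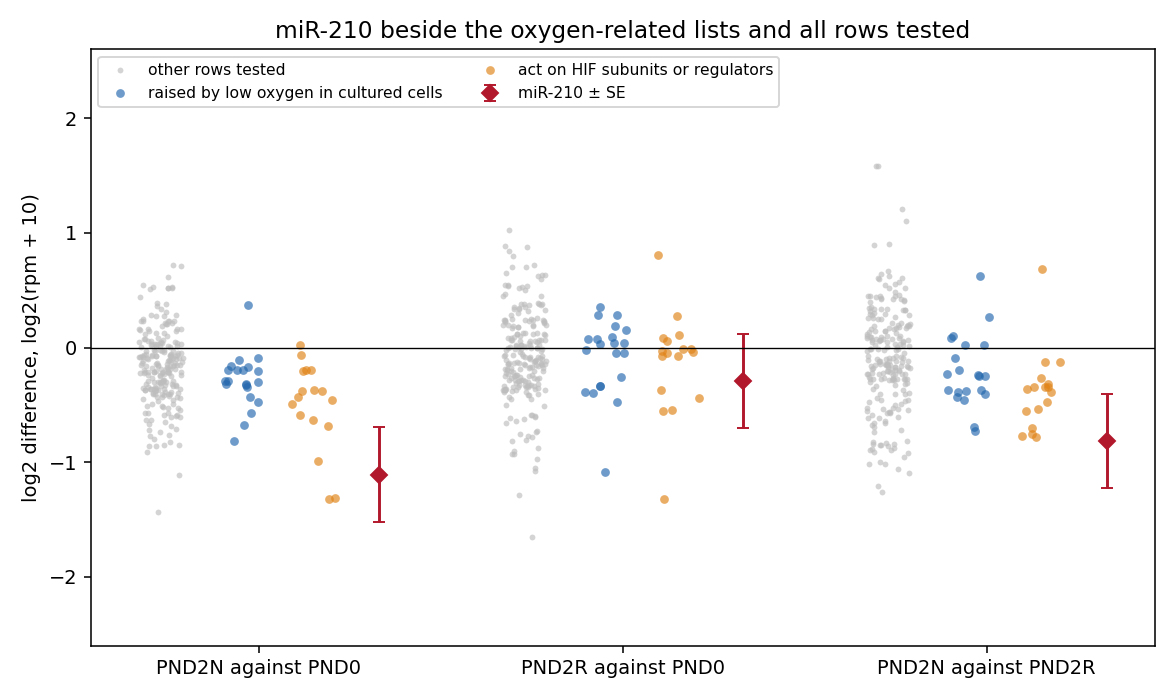
Log2 difference of each tested row on the log2(rpm + 10) scale in the 3 comparisons: other rows in grey, rows of the list raised by low oxygen in blue, rows of the list acting on HIF in orange, and miR-210 with its SE in red. For PND2N against PND0, miR-210 lies at -1.11 and the list medians at -0.29 and -0.43.

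miRNAs at the level of miR-210 gave a scale for its spread. Over the 12 libraries it averaged 142 rpm, from 26.7 to 246 rpm. The next row above it in mean share, miR-31, reported to act on an inhibitor of HIF in human cells, stood at 129 ± 34.6 rpm in PND2N, 156 ± 39.6 rpm in PND2R and 148 ± 25.2 rpm in PND0. The next row below, miR-19a of the miR-17 cluster, stood at 128 ± 70.3 rpm in PND2N, 147 ± 74.1 rpm in PND2R and 148 ± 64.1 rpm in PND0. For both of these neighbours, the means of any pair of groups differed by less than the SD of either group of that pair. Unlike miR-210, these rows were not chosen for a difference between groups.

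The rows most like miR-210 were found by Pearson correlation of log2 share over the 12 libraries, among 159 other rows with reads in every library; the median of these correlations was 0.44. miR-221-3p, known from vessel and muscle cells, came first with r = 0.91 (Spearman rho 0.76). It was followed by both rows of miR-196b-5p, a HOX cluster miRNA whose rows held the same values (r = 0.88, rho 0.63), miR-17-5p (r = 0.87, rho 0.68) and the epithelial miR-205 (r = 0.87, rho 0.69). Without PND2N replicate 2 and PND0 replicate 3, the libraries farthest from the median of miR-210, the r of these rows was 0.64 to 0.80 over 10 libraries. miR-221-3p stood at 487 ± 231 rpm in PND2N, 642 ± 59.2 rpm in PND2R and 675 ± 98.0 rpm in PND0, and miR-205 at 481 ± 278 rpm in PND2N, 637 ± 154 rpm in PND2R and 812 ± 93.3 rpm in PND0. The lowest correlations were those of miR-100 (r = -0.80, rho -0.55), miR-7134-3p (r = -0.72, rho -0.43) and miR-127 (r = -0.72, rho -0.38). Without the same 2 libraries these were -0.61 for miR-100, -0.52 for miR-7134-3p and -0.00 for miR-127. These libraries share a wide range of depth, and the r with log10 depth was 0.51 for miR-210, 0.53 to 0.69 for the 5 most alike rows and -0.68 to -0.52 for the 3 least alike.

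Markers of cell types that the uterus could hold were summed in each library, and the ranges of PND2N and PND0 overlapped for each list named here. Those of PND2R and PND0 did not overlap for the endothelial rows, lower in PND2R, and the smooth muscle rows, higher in PND2R. For the other lists named here they overlapped. How many of all rows separate in this way between PND2R and PND0 was not counted. PND2R has 3 libraries under 100000 reads, and the endothelial ranges lie close together. The 3 red cell rows, miR-451, miR-144 and miR-486, summed to 94.9 to 460 rpm in PND2N, 170 to 473 rpm in PND2R and 335 to 554 rpm in PND0, and 0 of the 3 were at 0 in all libraries. The 5 epithelial rows, miR-205, miR-429, miR-182, miR-183 and miR-96-5p, summed to 320 to 1072 rpm in PND2N, 730 to 1087 rpm in PND2R and 881 to 1149 rpm in PND0. Of these, miR-182, miR-183 and miR-96-5p were at 0 reads in PND2N replicates 2 and 4. The other 4 of the 9 listed epithelial names matched no row, as did 1 of the 4 listed leukocyte names. The 5 endothelial rows of miR-126, miR-221 and miR-222 summed to 11004 to 14708 rpm in PND2N, 10442 to 12821 rpm in PND2R and 12924 to 16354 rpm in PND0. The 4 smooth muscle rows summed to 163532 to 291202 rpm in PND2N, 180983 to 209535 rpm in PND2R and 94917 to 177830 rpm in PND0. The 5 leukocyte rows of miR-142, miR-150 and miR-155 summed to 214 to 434 rpm in PND2N, 375 to 501 rpm in PND2R and 380 to 488 rpm in PND0. The 7 mesenchymal rows summed to 88623 to 161980 rpm in PND2N, 138785 to 158714 rpm in PND2R and 139305 to 174437 rpm in PND0, and the 10 striated muscle rows to 2990 to 5153 rpm in PND2N, 3094 to 4840 rpm in PND2R and 2312 to 3374 rpm in PND0. None of the rows tested passed in any of the 3 comparisons by limma or edgeR. Their part in the level of miR-210 was not tested. PND2N replicate 2, the library with 1 read of miR-210, held 37462 miRNA reads. It had the lowest epithelial, leukocyte and mesenchymal sums and the highest smooth muscle sum of the 12. PND0 replicate 4, the low newborn library, had the lowest red cell, leukocyte, endothelial, epithelial and striated muscle sums of its group.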

How the data were processed

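The study read uterine small RNA of 12 gilts. Per the labels' protocols, 500 ng of column-purified total RNA entered a NEBNext small RNA kit, with no molecular identifiers named, and size-selected libraries were read as 50 bp single ends. The build Sscrofa 10.2 and FastQC are listed in the submitters' processing notes. Aligner, counter and normalization are not given in the sources used here. By its values, the authors' deposited table holds a signal equal to reads over 1 factor per library, where anything under 1 became 1. Steps between values gave back whole reads, within 0.1 of a read for 100% of values up to 1000 reads and at least 95.9% of all. The floor hides up to 12 reads and entered as 0. Since the deposited totals differed with depth, levels are shares of the library total (rpm), the scale the design named.

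Groups follow the feeding labels. Replicate numbers follow accession order and pair nothing. limma 3.58.1 (R 4.3.3, trend) was fitted to log2(rpm + 10) for 268 rows (236 names) above the floor in at least 4 libraries, leaving out 152. The fit held all 12 libraries, with 9 residual degrees of freedom. Tests are two-sided at 0.05 after Benjamini-Hochberg adjustment over all rows tested. This scale understates changes of low miRNAs. edgeR 4.0.16, DESeq2 1.42.0 and voom ran on the recovered reads as alternatives, beside other scalings, pseudocounts, filters and left-out libraries. Fits were tested on simulated data: limma on shares seldom called unaltered rows where low-share rows were altered, but did so more often, in some runs for many rows, where abundant rows were altered too. A depth covariate was added after seeing the data. Named rows are up to 4 members of each list by mean share, the 5 most and 3 least alike rows, and the neighbours in level; a list name takes both arms and all precursor rows. The 9 lists, the member and the tests were chosen with earlier results of these data known.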

Additional observations from a re-analysis of the deposited data

How the results depend on the processing

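As a description of what miR-210 was chosen for, its log2 difference for PND2N against PND0 ran from -1.53 to -0.69 over the alternatives. For PND2N against PND2R, where the PND2N libraries also chose it, the difference ran from -1.10 to -0.39 and missed the threshold under each. For PND2R against PND0 it ran from -0.90 on deposited values to 0.10 with log10 depth as a covariate, the one reversal, and was -0.04 in libraries over 200000 reads, where PND2R has 1 library that is assumed to vary like the others. No row passed in any comparison by any tool or scaling, with 3 exceptions. With depth as a covariate (8 residual degrees of freedom), 11 rows, 4.1% of those tested, all lower in PND2N, passed between PND2N and PND2R, among them both rows of miR-103, miR-107, miR-17-5p and miR-20a of the oxygen lists, and 1 row passed between PND2R and PND0, miR-145-5p. Without PND2R replicate 4, 3 rows passed between PND2N and PND2R (range 0 to 3 over libraries left out): miR-129a-5p, miR-129b and miR-490-5p. These names were chosen after their values were seen, and the cause was not tested. Leaving out each library in turn gave -1.40 to -0.69 for PND2N against PND0, -0.58 to -0.15 for PND2R against PND0 and -0.99 to -0.39 for PND2N against PND2R. Without the 10 most abundant rows in the denominator, by construction, levels were 214 rpm in PND2N, 351 rpm in PND2R and 424 rpm in PND0. In PND2R the level was 174 rpm with reads pooled and 175 rpm in the 1 library over 200000 reads. No paired analysis was possible because the labels give no batch or block that would link gilts across groups. Depth limits PND2N replicate 2 and PND2R replicates 1, 2 and 3, with 1 to 10 reads of miR-210 each.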
